A study of Mus musculus with 12 samples.

Results

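Whole hearts of mouse embryos with and without disruption of endothelial Ino80 were compared here through 32 marker genes of macrophages and other leukocytes, the immune cells of the heart. They are the rows of the deposited count table whose symbol is on a list of macrophage, microglia-like and general leukocyte markers: 32 of 45664 rows, all of which passed the filter on low counts that kept 20691 genes. RNA of each heart was sequenced as 1 library, 12 in all. The knockout (KO) hearts carry a disruption of Ino80, which encodes the ATPase of a nucleosome-moving complex, driven through Tie2, and the wild-type (WT) hearts do not. At embryonic stage E13.5 there were 3 KO hearts (replicates 3, 5 and 7) and 3 WT hearts (replicates 1, 4 and 2), all from litter 1. At E14.5 there were 3 KO hearts, replicates 2 and 4 from litter 2 and replicate 1 from litter 3, and 3 WT hearts, replicates 8 and 7 from litter 2 and replicate 7.2 from litter 3. Strain, the deleted part of the gene and what the WT embryos carry are not given in the sources used here.

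Macrophages of the embryonic heart descend from yolk sac progenitors and, later, from fetal liver monocytes. They live on the growth factor CSF1, received by the receptor CSF1R, and engulf dead cells, make complement and shape coronary and lymphatic vessels. The transcription factor PU.1, encoded by Spi1, switches on many of their genes. Tie2-driven lines are known to recombine in much of the blood lineage as well as in endothelium, so leukocytes of a KO heart may carry the disruption too; which cells carried it was not measured. In bulk RNA of a whole heart, fewer macrophages and less RNA of these genes per macrophage cannot be told apart.

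The libraries held 46556032 to 182545647 counts, and no pair among the 66 agreed within sampling noise (lowest chi-square per degree of freedom 17.1). Levels are given as CPM, counts scaled to the size of the library. Ino80 itself was read in every heart, at 29.6 ± 0.0252 CPM in KO against 33.7 ± 2.92 CPM in WT at E13.5, and at 29.5 ± 2.45 CPM in KO against 32.03 ± 1.61 CPM in WT at E14.5 (SD, n = 3 each). By edgeR's quasi-likelihood test the adjusted p was 0.447 at E13.5 and 0.726 at E14.5. The count covers the whole gene, and most cells of a heart lie outside the Tie2 lineage. Heart muscle markers summed to between 21024 and 27712 CPM in KO hearts and between 23153 and 27895 CPM in WT hearts. One KO heart of each stage (replicate 5 at E13.5, replicate 2 at E14.5; called the low hearts) stood apart from the other hearts of their group in the leukocyte genes, and results that rest on them are given with and without them. Because the low hearts were picked by their levels of these same 32 genes, calls made without them are no independent check.

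Among these 32 genes, the KO hearts differed widely from each other. The level of each gene in a KO heart was set against its mean in the WT hearts of the same stage. The median over the genes was 33.7%, 8.09% and 57.8% in E13.5 KO replicates 3, 5 and 7. Among the later KO hearts it was 19.3% in replicate 2, but 125% in replicate 4 and 113% in replicate 1. So all the E13.5 KO hearts and 1 of the 3 E14.5 KO hearts had low levels, while the other two lay above the WT mean. WT hearts stayed close together: each, set against the other WT hearts of its stage, had a median between 94.6% and 109%. The shallowest library of all was E14.5 WT replicate 8 (46556032 counts), whose median was 94.6%. E13.5 KO replicate 5 had the shallowest library of its stage, at 49879860 counts against 62277627 to 182545647 in the other E13.5 hearts. E14.5 KO replicate 2 had 64117502 counts. The part of depth in these values was not tested.

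Counts of genes gave the same order of hearts. In E13.5 KO replicate 5, 31 of the 32 genes lay below all 3 WT hearts of the stage, where 31% of all genes did, and 25 lay under 25% of the WT mean, where 1.98% of all genes did. For E14.5 KO replicate 2 the counts were 29 (30.2% of all genes) and 18 (1.78%). KO replicate 3 had 28 genes below all WT hearts (24.7% of all genes) and 5 under 25% of the WT mean (0.957%), and KO replicate 7 had 26 (27.7%) and 2 (0.512%). In E14.5 KO replicates 4 and 1 only 1 gene each lay below all WT hearts (27.6% and 25.5% of all genes), and 21 and 16 genes lay above all of them (26% and 26.6% of all genes). None lay under 25% of the WT mean in these hearts, where 0.812% and 0.773% of all genes did. The coefficient of variation between hearts of a group had a median over the 32 genes of 71.5% in KO against 15.6% in WT at E13.5, and of 66.3% in KO against 12.1% in WT at E14.5. Over all genes it was 8.37% in KO against 9.29% in WT at E13.5, and 11.6% in KO against 10.4% in WT at E14.5.

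**Figure D1:**
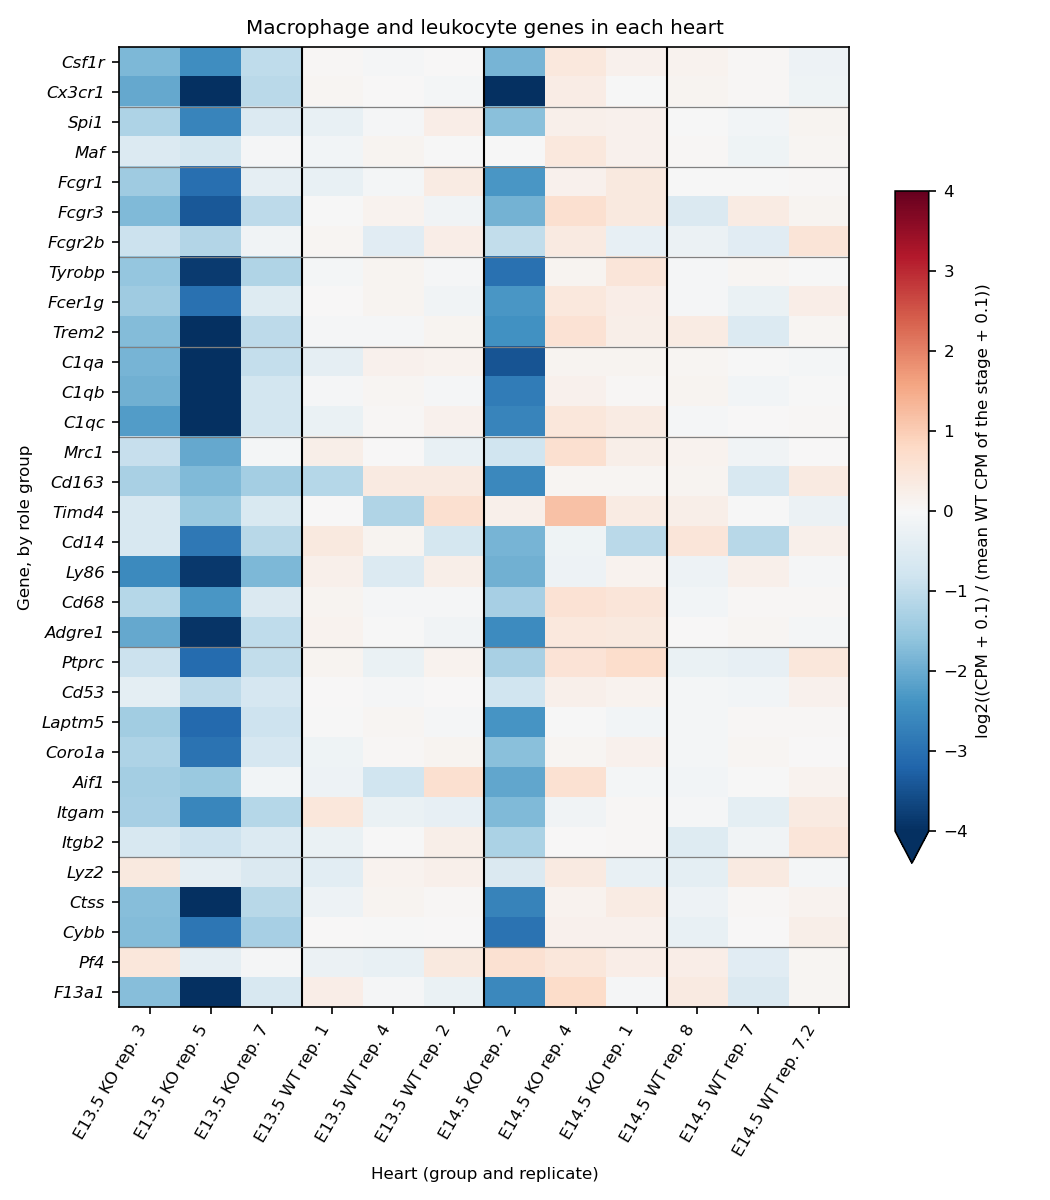
Level of each of the 32 genes (rows, grouped by role) in each of the 12 hearts (columns), as the log2 ratio to the mean of the WT hearts of the same stage after adding 0.1 CPM; blue is lower and red higher, and the darkest blue also covers values below the end of the scale. The columns of both low hearts (KO replicate 5 at E13.5, KO replicate 2 at E14.5) are blue for nearly all genes, while those of E14.5 KO replicates 4 and 1 are pale like the WT columns, and the rows of Lyz2, Pf4 and Maf stay pale throughout.

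The receptors come first. Csf1r, the receptor of CSF1 and of interleukin 34, measured 6.51, 4.03 and 11.4 CPM in E13.5 KO replicates 3, 5 and 7, against 23.8, 22.3 and 23.2 CPM in WT replicates 1, 4 and 2. The E14.5 values were 4.63, 23.3 and 19.3 CPM in KO replicates 2, 4 and 1, against 19.1, 17.6 and 15.02 CPM in WT replicates 8, 7 and 7.2. Every E13.5 KO heart was under every WT heart, whereas at E14.5 the groups overlapped because KO replicate 2 was lowest and KO replicate 4 highest of the 6. Cx3cr1, the fractalkine receptor of monocytes and microglia (chromosome 9, 119901616 to 120069879), lay between 0.415 and 5.30 CPM in E13.5 KO hearts and between 10.5 and 11.8 CPM in WT hearts. At E14.5 it lay at 0.295 CPM in KO replicate 2 and at 10.7 and 8.62 CPM in KO replicates 4 and 1, against 7.78 to 9.33 CPM in WT hearts.

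The 2 transcription factors differed. Spi1 (chromosome 2, 91082390 to 91115756) measured 0.959, 0.296 and 1.58 CPM in E13.5 KO replicates 3, 5 and 7, against 1.91, 2.32 and 2.900 CPM in WT replicates 1, 4 and 2. Among E14.5 hearts it measured 0.528, 2.18 and 2.14 CPM in KO replicates 2, 4 and 1, against 1.88, 1.75 and 2.03 CPM in WT replicates 8, 7 and 7.2. As for Csf1r, all E13.5 KO hearts lay under the WT hearts, replicate 5 lowest, and at E14.5 only KO replicate 2 did. Maf, a transcription factor of tissue macrophages that other heart cells also use (chromosome 8, 115682942 to 115707794), measured 13.9, 12.5 and 19.7 CPM in E13.5 KO replicates 3, 5 and 7, against 18.9, 22.1 and 19.9 CPM in WT replicates 1, 4 and 2. The later hearts gave 18.6, 25.7 and 21.6 CPM in KO replicates 2, 4 and 1, against 19.8, 16.9 and 20.3 CPM in WT replicates 8, 7 and 7.2. The Maf groups overlapped at both stages, and the low E14.5 heart was within the WT range.

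PU.1 binds purine-rich DNA with a GGAA core, and GAGGAA is a common form of its site, so the promoters of the genes are shown with that motif. RefSeq promoters on GRCm38.p6 (250 bases before to 50 after the start) were held for 24 of the 32 genes, 4 of them with several entries, of which the first was used. GAGGAA on either strand occurred in 16 of these 24 promoters (66.7%) and in 7652 of all 27025 promoters of the same length (28.3%). The genes without a match were Fcgr2b, Fcer1g, Cd163, Coro1a, Cx3cr1, Lyz2, Timd4 and Ly86, which includes genes far below WT and genes near it in the KO hearts. TGCTGAC, the core of the element bound by MAF proteins, occurred in 3 of the 24 promoters (12.5%; Fcgr3, Coro1a and Timd4) and in 4.58% of all promoters. Both motifs were searched on both strands and counted separately, without regard to overlap. The promoters below are those of 6 genes with a match whose levels are described in the next paragraphs, and that of Lyz2. Lyz2 has no match and did not follow the others, but neither did Pf4, which has a match. Coro1a, Fcer1g, Ly86 and Cx3cr1 have none, and each was under all WT hearts in every E13.5 KO heart. How matches relate to levels was not tested. Capitals mark GAGGAA, or TTCCTC where the match is on the other strand; a match is a description of the letters and not a site.
Itgam, chr7:128062390-128062689 (plus strand): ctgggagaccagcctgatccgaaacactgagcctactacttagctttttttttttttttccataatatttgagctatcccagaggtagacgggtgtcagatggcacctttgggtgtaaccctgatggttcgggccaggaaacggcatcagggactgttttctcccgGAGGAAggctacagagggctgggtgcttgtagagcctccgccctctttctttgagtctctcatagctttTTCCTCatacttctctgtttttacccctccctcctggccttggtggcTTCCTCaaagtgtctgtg
Mrc1, chr2:14229164-14229463 (plus strand): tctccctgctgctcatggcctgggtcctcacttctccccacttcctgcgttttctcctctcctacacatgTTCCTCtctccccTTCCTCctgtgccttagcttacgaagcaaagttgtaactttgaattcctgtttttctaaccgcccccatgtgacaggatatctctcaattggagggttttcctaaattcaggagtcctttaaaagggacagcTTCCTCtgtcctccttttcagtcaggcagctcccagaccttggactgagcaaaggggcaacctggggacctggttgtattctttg
Ctss, chr3:95526536-95526835 (plus strand): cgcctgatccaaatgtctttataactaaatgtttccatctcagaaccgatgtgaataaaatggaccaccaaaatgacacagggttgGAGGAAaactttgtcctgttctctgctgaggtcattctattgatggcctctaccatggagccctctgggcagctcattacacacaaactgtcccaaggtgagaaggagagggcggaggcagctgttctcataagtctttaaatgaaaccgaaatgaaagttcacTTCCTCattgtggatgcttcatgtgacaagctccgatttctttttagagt
C1qb, chr4:136886151-136886450 (minus strand): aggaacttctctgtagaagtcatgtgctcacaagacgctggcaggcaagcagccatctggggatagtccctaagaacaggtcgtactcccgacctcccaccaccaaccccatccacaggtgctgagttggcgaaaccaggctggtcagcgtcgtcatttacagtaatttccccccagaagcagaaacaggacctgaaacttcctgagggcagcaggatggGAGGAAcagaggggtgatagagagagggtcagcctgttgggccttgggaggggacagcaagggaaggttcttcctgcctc
C1qc, chr4:136892865-136893164 (minus strand): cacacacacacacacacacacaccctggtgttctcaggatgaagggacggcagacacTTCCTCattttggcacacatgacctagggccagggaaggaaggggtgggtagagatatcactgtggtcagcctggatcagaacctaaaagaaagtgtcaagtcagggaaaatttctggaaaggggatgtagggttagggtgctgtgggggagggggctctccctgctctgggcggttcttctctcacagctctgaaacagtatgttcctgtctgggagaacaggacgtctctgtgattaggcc
Cybb, chrX:9469275-9469574 (minus strand): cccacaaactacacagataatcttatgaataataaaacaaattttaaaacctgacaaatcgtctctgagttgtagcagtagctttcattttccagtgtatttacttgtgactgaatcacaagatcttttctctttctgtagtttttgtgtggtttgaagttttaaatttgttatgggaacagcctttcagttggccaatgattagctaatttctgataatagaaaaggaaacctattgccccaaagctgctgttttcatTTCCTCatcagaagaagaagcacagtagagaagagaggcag
Lyz2, chr10:117282223-117282522 (minus strand): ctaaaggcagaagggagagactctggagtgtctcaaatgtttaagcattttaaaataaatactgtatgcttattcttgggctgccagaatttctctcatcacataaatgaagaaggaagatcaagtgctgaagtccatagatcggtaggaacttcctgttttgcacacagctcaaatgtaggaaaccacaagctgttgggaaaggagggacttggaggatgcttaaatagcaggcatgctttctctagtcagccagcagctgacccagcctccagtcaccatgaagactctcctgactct

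The Fc receptors bind the constant part of antibodies. Fcgr1, the high-affinity activating receptor (chromosome 3, 96282909 to 96293969), lay between 0.0790 and 1.02 CPM in E13.5 KO hearts and between 1.07 and 1.70 CPM in WT hearts. Fcgr3, a low-affinity activating receptor, lay between 0.296 and 1.91 CPM in KO hearts and between 3.72 and 4.51 CPM in WT hearts. Fcgr2b, the inhibitory receptor, overlapped between the groups, at 0.178 to 0.473 CPM in KO hearts and 0.361 to 0.657 CPM in WT hearts. Fcgr3, Fcgr2b and the adaptor gene Fcer1g lie near each other on chromosome 1, within 170958617 to 171234365. In the low E14.5 heart, KO replicate 2, Fcgr1 was at 15.3%, Fcgr3 at 25.1% and Fcgr2b at 44.8% of the WT mean.

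Adaptors with activation motifs carry the signal of such receptors into the cell. Tyrobp, the adaptor DAP12 (chromosome 7, 30413760 to 30417585), measured 1.06, 0.138 and 1.38 CPM in E13.5 KO replicates 3, 5 and 7, against 3.10, 3.56 and 3.16 CPM in WT replicates 1, 4 and 2. The E14.5 values were 0.295, 3.26 and 4.25 CPM in KO replicates 2, 4 and 1, against 2.88, 3.17 and 2.97 CPM in WT replicates 8, 7 and 7.2. No E13.5 KO heart reached the WT range, and at E14.5 only KO replicate 2 lay under it. Fcer1g, the common Fc receptor gamma chain, lay between 0.336 and 2.31 CPM in E13.5 KO hearts and between 3.06 and 3.65 CPM in WT hearts. Trem2, the lipid-sensing receptor that signals through DAP12 (chromosome 17, 48346401 to 48354147), had 0 counts in E13.5 KO replicate 5. Against the WT mean of 1.66 CPM that is at least 28.0-fold lower, taking 3 counts of that library as the floor (0.0592 CPM). KO replicates 3 and 7 had 0.434 and 0.758 CPM of Trem2, under the WT range of 1.60 to 1.78 CPM.

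The 3 chains of complement C1q, which tags dying cells and synapses for engulfment, are neighbouring genes on chromosome 4 (136880129 to 136898803). C1qa measured 1.47, 0.197 and 2.86 CPM in E13.5 KO replicates 3, 5 and 7, against 4.36, 6.40 and 6.200 CPM in WT replicates 1, 4 and 2. C1qb measured 2.04, 0.276 and 4.74 CPM in the same KO hearts, against 7.76, 8.41 and 7.77 CPM in the WT hearts. C1qc measured 1.69, 0.415 and 5.04 CPM in KO, against 6.95, 8.67 and 9.501 CPM in WT. All 3 chains ordered the KO hearts alike, with replicate 5 lowest and replicate 7 highest. In E14.5 KO replicates 2, 4 and 1 C1qa measured 0.497, 6.98 and 6.96 CPM, against 6.75, 6.42 and 6.14 CPM in WT replicates 8, 7 and 7.2. C1qb measured 1.29, 10.7 and 9.93 CPM in those KO hearts, against 10.4, 8.77 and 9.39 CPM in WT, and C1qc measured 1.04, 9.76 and 8.93 CPM in KO, against 6.79, 7.11 and 7.21 CPM in WT. Only KO replicate 2 lay under the WT hearts.

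Scavenger, lectin and phagocytic receptors were more mixed. Mrc1, the mannose receptor CD206 of resident macrophages (chromosome 2, 14229392 to 14332057), measured 8.93, 4.03 and 15.8 CPM in E13.5 KO replicates 3, 5 and 7, against 19.8, 17.0 and 13.7 CPM in WT replicates 1, 4 and 2. Among E14.5 hearts it measured 6.51, 17.6 and 13.4 CPM in KO replicates 2, 4 and 1, against 12.4, 10.1 and 11.3 CPM in WT replicates 8, 7 and 7.2. KO replicate 7 was inside the E13.5 WT range. Ly86, which encodes MD-1, the partner of the receptor RP105 (chromosome 13, 37345208 to 37419036), measured 0.202, 0.0197 and 0.401 CPM in E13.5 KO replicates 3, 5 and 7, against 1.91, 1.09 and 1.94 CPM in WT replicates 1, 4 and 2. At E14.5 Ly86 measured 0.218, 0.961 and 1.24 CPM in KO replicates 2, 4 and 1, against 0.961, 1.31 and 1.07 CPM in WT replicates 8, 7 and 7.2. Its value in E13.5 KO replicate 5 is 1 count.

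Cd163, the haemoglobin scavenger receptor (chromosome 6, 124304656 to 124330527), was scarce in every heart: it measured 0.0404, 0 and 0.0330 CPM in E13.5 KO replicates 3, 5 and 7, against 0.0540, 0.338 and 0.336 CPM in WT replicates 1, 4 and 2. The later hearts gave 0, 0.530 and 0.531 CPM in KO replicates 2, 4 and 1, against 0.534, 0.280 and 0.666 CPM in WT replicates 8, 7 and 7.2. With 0 counts it was at least 4.10-fold under the WT mean in E13.5 KO replicate 5 and at least 10.6-fold under it in E14.5 KO replicate 2. Timd4, the phosphatidylserine receptor TIM-4 of long-lived resident macrophages (chromosome 11, 46810800 to 46844332), measured 0.0808, 0 and 0.0824 CPM in E13.5 KO replicates 3, 5 and 7, against 0.184, 0.0225 and 0.336 CPM in WT replicates 1, 4 and 2. At E14.5 it measured 0.124, 0.345 and 0.148 CPM in KO replicates 2, 4 and 1, against 0.128, 0.0933 and 0.0650 CPM in WT replicates 8, 7 and 7.2. These levels are too low to order the hearts.

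Cd14, the lipopolysaccharide co-receptor, measured 0.464, 0.0197 and 0.308 CPM in E13.5 KO replicates 3, 5 and 7, against 1.04, 0.845 and 0.433 CPM in WT replicates 1, 4 and 2. The E14.5 values were 0.0932, 0.530 and 0.236 CPM in KO replicates 2, 4 and 1, against 0.876, 0.224 and 0.715 CPM in WT replicates 8, 7 and 7.2. WT hearts themselves were spread widely for Cd14, and the groups overlapped at both stages. Cd68, a lysosomal membrane protein, lay between 0.454 and 1.77 CPM in E13.5 KO hearts and between 2.59 and 2.904 CPM in WT hearts. Adgre1, the F4/80 antigen (chromosome 17, 57358691 to 57483527), lay between 0.336 and 3.18 CPM in E13.5 KO hearts and between 5.86 and 7.1998 CPM in WT hearts.

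Genes shared by most leukocytes showed the split in the same hearts. Ptprc, the pan-leukocyte phosphatase CD45 (chromosome 1, 138062861 to 138175708), measured 0.919, 0.118 and 0.846 CPM in E13.5 KO replicates 3, 5 and 7, against 1.89, 1.44 and 1.94 CPM in WT replicates 1, 4 and 2. Among E14.5 hearts it measured 0.591, 2.39 and 2.69 CPM in KO replicates 2, 4 and 1, against 1.32, 1.25 and 2.24 CPM in WT replicates 8, 7 and 7.2. KO replicates 4 and 1 were above all E14.5 WT hearts. Laptm5, a lysosomal protein that damps antigen receptor signals, measured 6.44, 1.88 and 9.496 CPM in E13.5 KO replicates 3, 5 and 7, against 16.8, 17.7 and 16.2 CPM in WT replicates 1, 4 and 2. Coro1a, an actin-binding coronin of leukocytes, lay between 0.671 and 3.68 CPM in E13.5 KO hearts and between 5.17 and 6.39 CPM in WT hearts. Itgam and Itgb2, which pair as the integrin CD11b/CD18, were at 34.8%, 8.95% and 40.3% (Itgam) and at 60.4%, 51.6% and 64.6% (Itgb2) of the WT mean in E13.5 KO replicates 3, 5 and 7. The tetraspanin gene Cd53 was at 75.6%, 46.9% and 62.2% in the same hearts. Aif1, the actin-bundling protein IBA1, lay between 0.257 and 0.830 CPM in KO hearts and between 0.473 and 1.46 CPM in WT hearts, so that the groups overlapped.

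Of the lysosomal and oxidative effectors, Lyz2 stood out. Lyz2, the lysozyme of macrophages and neutrophils and the most abundant of the 32 genes per length (28.9 CPM per kb of exon in WT hearts), measured 54.3, 31.8 and 27.4 CPM in E13.5 KO replicates 3, 5 and 7, against 30.5, 44.9 and 47.3 CPM in WT replicates 1, 4 and 2. The later hearts gave 23.5, 44.8 and 28.6 CPM in KO replicates 2, 4 and 1, against 26.5, 45.2 and 33.6 CPM in WT replicates 8, 7 and 7.2. The groups overlapped at both stages and E13.5 KO replicate 3 was the highest heart of all, although other leukocyte genes were low in it. Lyz2 has a near-identical neighbouring copy, Lyz1, and how reads shared by the pair were counted is not given, so its level is uncertain. Ctss, a cathepsin that trims antigens (chromosome 3, 95526786 to 95556403), lay at 29.8%, 0.965% and 45.1% of the WT mean in E13.5 KO replicates 3, 5 and 7, with 3 counts in replicate 5. Cybb, the catalytic subunit of the phagocyte NADPH oxidase (chromosome X, 9435252 to 9487771), measured 0.687, 0.257 and 0.945 CPM in E13.5 KO replicates 3, 5 and 7, against 2.57, 2.49 and 2.56 CPM in WT replicates 1, 4 and 2. Its E14.5 values were 0.357, 3.89 and 3.92 CPM in KO replicates 2, 4 and 1, against 2.80, 3.55 and 4.09 CPM in WT replicates 8, 7 and 7.2, so that only KO replicate 2 lay under the WT hearts.

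The secreted factors differed from each other. F13a1, the coagulation factor XIII A chain made by resident macrophages and by platelets (chromosome 13, 36867178 to 37050244), measured 6.21, 1.07 and 12.9 CPM in E13.5 KO replicates 3, 5 and 7, against 24.5, 19.7 and 16.7 CPM in WT replicates 1, 4 and 2. The E14.5 values were 2.16, 22.3 and 12.8 CPM in KO replicates 2, 4 and 1, against 16.9, 8.96 and 14.0 CPM in WT replicates 8, 7 and 7.2. Pf4, platelet factor 4, a chemokine of megakaryocytes that embryonic macrophages also express (chromosome 5, 90772435 to 90773383), measured 4.92, 2.74 and 3.45 CPM in E13.5 KO replicates 3, 5 and 7, against 3.00, 2.89 and 4.71 CPM in WT replicates 1, 4 and 2. At E14.5 it measured 5.16, 4.56 and 4.03 CPM in KO replicates 2, 4 and 1, against 4.04, 2.37 and 3.54 CPM in WT replicates 8, 7 and 7.2. Both low hearts had at least 77.7% of the WT mean of Pf4, and its highest value of all was in the low E14.5 heart. A list of 11 megakaryocyte and platelet markers, 10 of them tested, summed to 13.4 to 21.6 CPM in KO hearts and 13.4 to 20.5 CPM in WT hearts at E13.5, and to 14.7 to 18.7 CPM in KO against 10.9 to 20.7 CPM in WT at E14.5; their part in the Pf4 and F13a1 values was not tested.

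**Figure D2:**
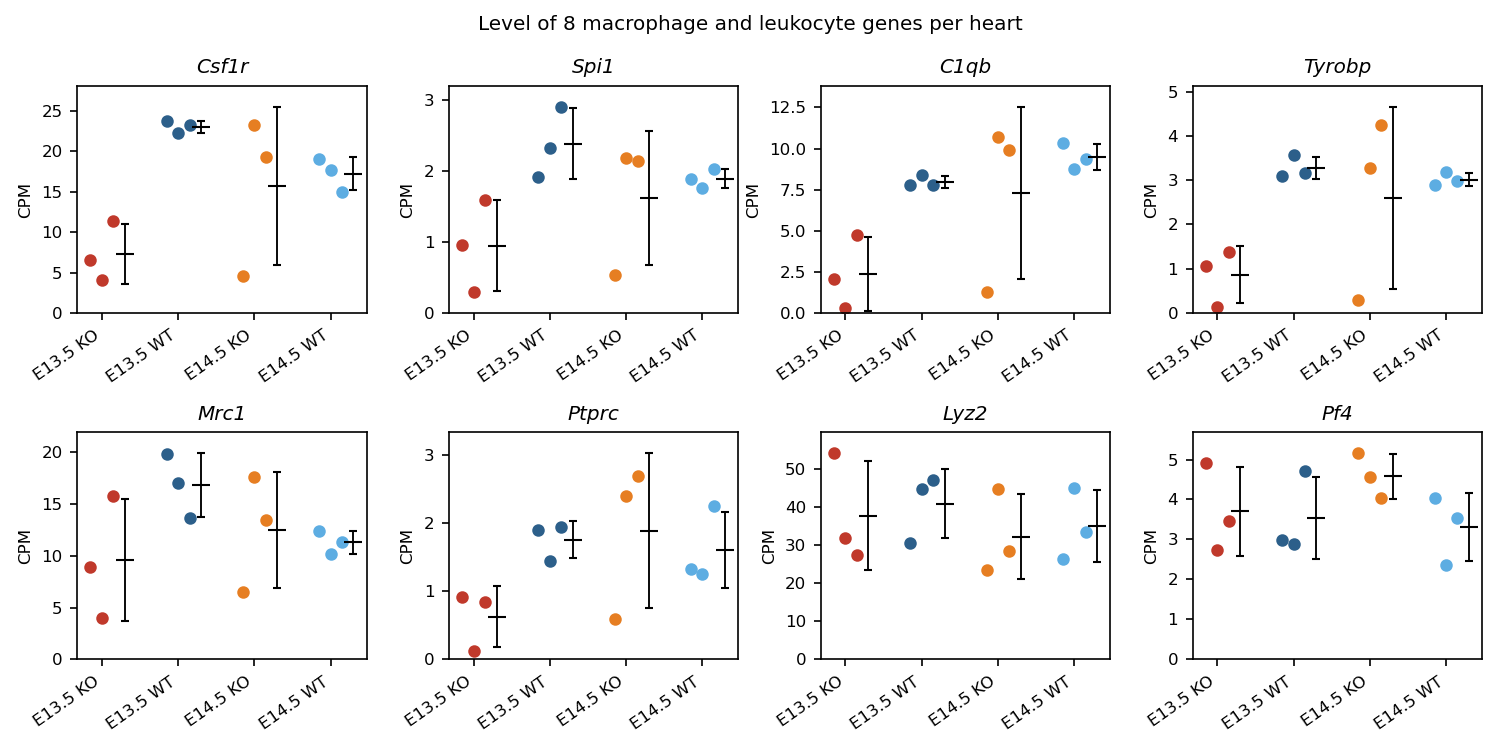
Level in CPM of 8 of the genes in the single hearts (points) of the 4 groups, with the group mean and its standard deviation (bars, n = 3 each). For Csf1r, Spi1, C1qb, Tyrobp and Ptprc the E13.5 KO points lie under all E13.5 WT points and 1 of the 3 E14.5 KO points lies far under the rest, Mrc1 overlaps at E13.5, and Lyz2 and Pf4 show no such split.

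At E13.5, 31 of the 32 genes lay below 0 in the comparison of KO with WT hearts, and Pf4 was the exception. The median log2 fold change was -1.48, a fold change of 0.359, against 0.00 over all genes. The largest differences were those of Cd163 (-2.93 ± 1.14) and Ly86 (-2.82 ± 0.65), and the smallest those of Lyz2 (-0.11 ± 0.29) and Pf4 (0.08 ± 0.26, each ± SE). Cd163 lay at 0 to 0.0404 CPM in KO hearts and 0.0540 to 0.338 CPM in WT hearts, too low to order hearts. It is still counted among the 24 genes given next. For 24 genes each KO heart was under every WT heart, as for 11.2% of all genes, and for 0 it was above every one, as for 8.44%. For the other 8 the groups overlapped, namely Maf, Fcgr2b, Mrc1, Timd4, Cd14, Aif1, Lyz2 and Pf4.

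None of the 32 genes passed edgeR's quasi-likelihood test at this stage, where 0.0773% of all genes (16 of 20691) did. The smallest adjusted p was 0.163 for Ly86. At an unadjusted p under 0.05 there were 21 of the 32, all lower, against 10.5% of all genes (5.69% lower). With 1 library left out that count ran from 9, without E13.5 KO replicate 5, to 26, without E13.5 KO replicate 7 or E14.5 KO replicate 2; it was 14 without WT replicate 4 or WT replicate 2, and 23 without both low hearts. For these fits with libraries left out, the share of all genes at that unadjusted p was not counted. Csf1r had a log2 fold change of -1.64 ± 0.45 (adjusted p = 0.239), Itgam of -1.76 ± 0.53 (0.281) and Cybb of -1.95 ± 0.63 (0.314). The count of calls moved with the processing, and so did the count over all genes. DESeq2 called 2 (Itgam and Ly86), against 310 of all genes. The test with no low-count filter called 1 (Ly86), against 95 of all genes. Limma voom with sample weights called 0 (smallest adjusted p 0.0551), against 405 of all genes. Without E14.5 KO replicate 2, whose spread all groups share in the fit, 2 genes passed (Csf1r and Cybb), against 63 of all genes. With both low hearts left out 5 passed (Csf1r, Cybb, Ctss, Laptm5 and Tyrobp), against 25 of all genes. The median was then -1.08, so that the difference was there in KO replicates 3 and 7 too. Of the 3 KO hearts 2 expressed Y-linked genes, against 1 of the 3 WT hearts. With that as a covariate 0 genes passed, against 7 of all genes, and 32 lay below 0. At an unadjusted p under 0.05 there were then 30 of the 32, with no share of all genes counted.

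At E14.5 the same comparison gave a median log2 fold change of -0.18, with 25 of the 32 genes below 0, against a median of -0.01 over all genes. The values ran from -1.05 ± 0.75 for Cd14 to 1.14 ± 0.86 for Timd4. Csf1r was at -0.13 ± 0.45, C1qb at -0.37 ± 0.70 and Ptprc at 0.23 ± 0.57. The groups overlapped for every one of the 32 genes, where 5.87% of all genes had each KO heart under every WT heart and 6.81% had it above. None passed the quasi-likelihood test, against 0.242% of all genes, and none had an unadjusted p under 0.05, against 9.7% of all genes. DESeq2 and limma voom also called 0, and the smallest adjusted p was 0.642 for Pf4 (0.47 ± 0.26). Without KO replicate 2 the median turned to 0.27 and only 4 genes lay below 0. Within litter 2, which holds KO replicates 2 and 4, the median log2 ratio was -0.38 with 26 genes below 0, and within litter 3, with 1 heart of each genotype, it was 0.15 with 11 below 0.

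**Figure D3:**
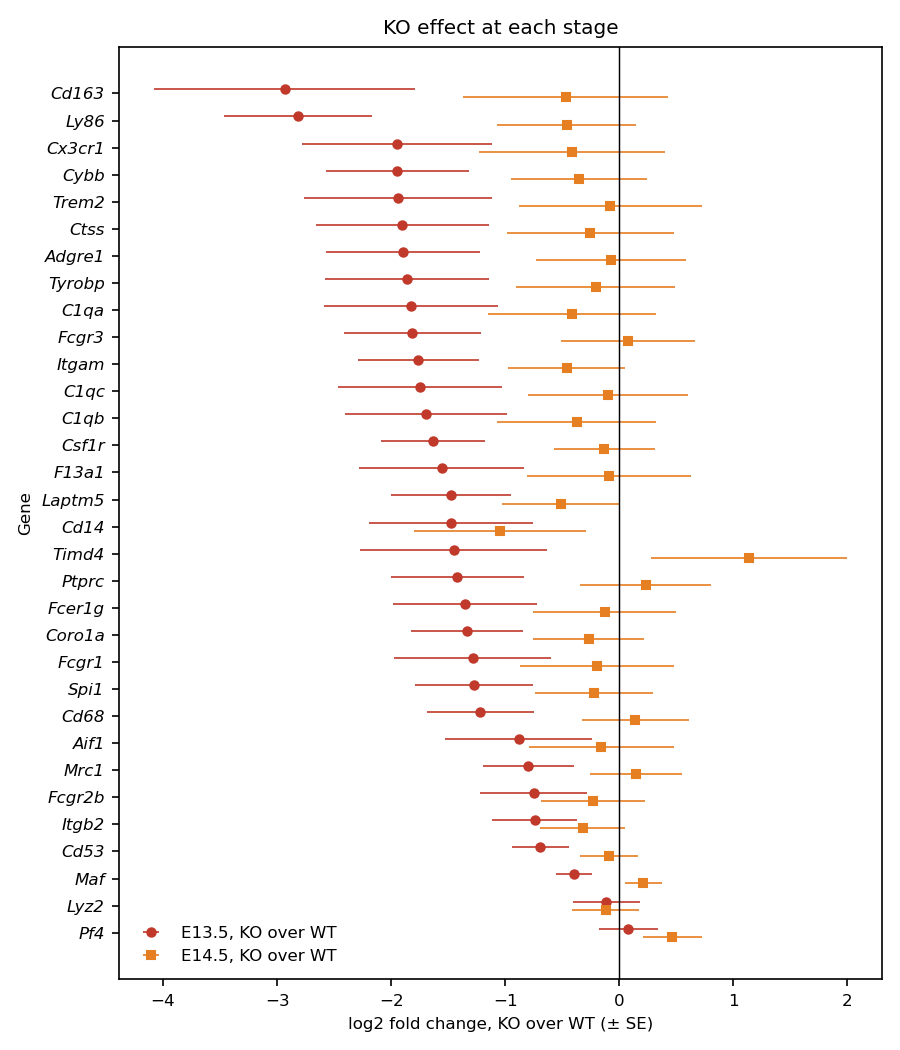
Log2 fold change of KO over WT hearts for each of the 32 genes at E13.5 (circles) and E14.5 (squares), with bars of 1 standard error (n = 3 hearts per group), ordered by the E13.5 value. At E13.5 the values run from -2.93 for Cd163 to 0.08 for Pf4, and at E14.5 most lie near 0 with bars that cross it.

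Whether the KO effect differed between the stages was tested by the interaction. All but Lyz2 of the 32 genes had a higher KO effect at E14.5 than at E13.5, with a median difference of 1.34 on the log2 scale, against -0.01 over all genes. None passed, nor did any of the 20691 genes (0%), and all adjusted p-values were at least 0.996. At an unadjusted p under 0.05 there were 5 of the 32, all with a higher effect at E14.5, against 3.62% of all genes (2.3% higher). That count was 25 without E14.5 KO replicate 2 (smallest adjusted p 0.488), 25 without both low hearts (0.329), 13 without E13.5 KO replicate 7, 2 without E13.5 KO replicate 5 and 1 without E14.5 KO replicate 4 or 1; leaving out any 1 WT heart or E13.5 KO replicate 3 gave 3 or 4. Here too, the share of all genes was not counted for the fits with libraries left out. DESeq2 and limma voom called 0 of the 32. The stages share no heart, but stage and litter cannot be told apart. Averaged over both stages, 31 genes lay below 0 with a median of -0.85, against 0.00 over all genes, and 0 passed where 1.56% of all genes did. Ly86 came nearest (-1.64 ± 0.44, adjusted p = 0.0965). It passed by DESeq2 (0.00559) and with no low-count filter (0.0335), each calling 1 of the 32, against 926 and 467 of all genes. Over its alternatives without 1 library its adjusted p ran from 0.0698 to 0.178. At an unadjusted p under 0.05 there were 9 of the 32, all lower, against 14.8% of all genes (7.45% lower). With 1 library left out that count ran from 5, without E13.5 WT replicate 4 or E14.5 WT replicate 7.2, to 24, without E13.5 KO replicate 7; it was 18 without E14.5 KO replicate 4, 14 without E14.5 KO replicate 1 and 13 without both low hearts. Nor was the share of all genes at that unadjusted p counted for these fits. With both low hearts left out the median was -0.42 and 27 genes lay below 0.

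In WT hearts the median log2 fold change, E14.5 over E13.5, was -0.19 with 22 of 32 genes below 0, against 0.00 over all genes. Csf1r, Cx3cr1, Mrc1, Cd68, Adgre1 and Cd53 were lower in all E14.5 WT hearts than in all E13.5 WT hearts, as were 15.5% of all genes. Fcgr1, C1qb and Cybb were higher in all of them, as were 14% of all genes. None passed the quasi-likelihood test, against 3.7% of all genes, the smallest adjusted p being 0.397 for Itgb2 (0.54 ± 0.37), and none had an unadjusted p under 0.05, against 22.9% of all genes. DESeq2 and limma voom called 0 as well. A fit on the WT libraries alone gave 8 of 31 genes with an unadjusted p under 0.05. The smallest adjusted p was 0.0599, so none passed, where 556 of all genes did. The fit without both low hearts gave 5 of 32 (smallest adjusted p 0.141), where 458 of all genes passed. The share of all genes at that unadjusted p was not counted for these fits.

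In KO hearts 31 of the 32 genes were higher at E14.5 than at E13.5, with a median of 1.16 and Lyz2 as the exception. The largest value was that of Cd163 (3.56 ± 1.13), which had 0 counts in a heart of each group. Timd4 alone had all E14.5 KO hearts above all E13.5 KO hearts, as had 12.1% of all genes, but on 8 to 28 counts at E14.5 against 0 to 15 at E13.5, too few to order hearts. None passed the quasi-likelihood test, where 3.76% of all genes did; the smallest adjusted p was 0.0891 for Cybb (2.05 ± 0.63), and 12 had an unadjusted p under 0.05, all higher at E14.5, against 20.3% of all genes (10% higher). That count was 26 without E14.5 KO replicate 2 or E13.5 KO replicate 7, 7 without E13.5 KO replicate 5, 8 without E13.5 KO replicate 3, 5 without E14.5 KO replicate 4, 4 without E14.5 KO replicate 1 and 27 without both low hearts. Again no share of all genes at that unadjusted p was counted with libraries left out. DESeq2 called 5 (Cd163, Itgam, Maf, Ly86 and Cybb), against 1822 of all genes. The test with no low-count filter called 1 (Cybb), against 858 of all genes, and limma voom 0, against 769. Without E14.5 KO replicate 2 there were 5 (Fcgr3, Cd163, Itgam, Csf1r and Cybb), against 500 of all genes. Without both low hearts there were 8 (Fcgr3, Ctss, Laptm5, C1qb, C1qa, Tyrobp, Csf1r and Cybb), against 121 of all genes. The WT and KO comparisons of stage use different hearts of the same litters.

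Lists of other leukocyte and macrophage genes show how far the pattern reached. Of 28 tested further tissue macrophage genes 26 lay below 0 at E13.5, with a median of -1.41, against -0.05 at E14.5. Of 24 pan-leukocyte signalling and cytoskeleton genes 21 lay below 0 at E13.5 (median -0.71; -0.11 at E14.5). Myeloid transcription factors were nearer to 0 (11 of 14 below 0, median -0.20 at E13.5), as were microglia genes (7 of 10, -0.15). Monocyte markers (3 of 8, 0.05), neutrophil markers (3 of 7, 0.12), markers of MHC class II and dendritic cells (3 of 9, 0.17) and megakaryocyte markers (5 of 10, 0.06) had medians above 0 at E13.5. Which cells made this RNA was not measured. In E13.5 WT hearts Sall1 averaged 37.5 CPM of a microglia sum of 106 to 118 CPM. Zeb2 averaged 56.3 CPM of a transcription factor sum of 125 to 127 CPM. A median near or above 0 therefore does not show that the cells a list is named for were spared. At E14.5 the medians were -0.63 for monocyte markers (6 of 8 below 0), -2.01 for neutrophil markers (5 of 7), -0.09 for MHC class II and dendritic cell markers (5 of 9), 0.06 for megakaryocyte markers (4 of 10), 0.11 for myeloid transcription factors (4 of 14) and 0.20 for microglia genes (2 of 10). In these lists 0 members passed at E13.5 or at E14.5, against 0.0773% and 0.242% of all genes. Neutrophil markers summed to 32.4 CPM in E14.5 WT replicate 7.2, against 1.11 and 2.02 CPM in WT replicates 8 and 7. E14.5 KO hearts had 1.40 to 2.75 CPM, so apart from that WT heart they were not lower. Lymphocyte markers summed to 0.384 to 0.506 CPM in KO hearts and 1.04 to 1.54 CPM in WT hearts at E13.5, with 3 of 16 markers tested, all below 0 (median -1.62). At E14.5 the sums overlapped, at 0.622 to 1.36 CPM in KO and 0.961 to 1.23 CPM in WT. Of the 3 tested 1 lay below 0 there (median 0.26). These levels are near the floor, with 5 to 12 of the 16 markers at 0 in each heart.

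Mast cell genes held calls at both stages, but the list was split. Of its 8 tested markers 3 lay below 0 at E13.5 (median 0.08) and 4 at E14.5 (median -1). The list summed to 45.53 to 50.5 CPM in KO hearts against 41.0 to 45.55 CPM in WT hearts at E13.5. At E14.5 it summed to 49.2 to 55.2 CPM in KO against 36.3 to 45.6 CPM in WT. Kit held much of these sums, with an E14.5 mean of 31.4 CPM in KO and 19.2 CPM in WT. Cpa3, a carboxypeptidase of mast cell granules, measured 0.303, 0.197 and 0.341 CPM in E13.5 KO replicates 3, 5 and 7, against 2.52, 1.49 and 1.28 CPM in WT replicates 1, 4 and 2. The E14.5 values were 0.404, 0.998 and 0.487 CPM in KO replicates 2, 4 and 1, against 4.72, 4.69 and 2.94 CPM in WT replicates 8, 7 and 7.2. Each KO heart was under every WT heart of its stage, also the 2 E14.5 hearts whose macrophage genes were not low. Of 8 tested mast cell markers 1 fell at E13.5, Cpa3 (-2.61 ± 0.39, adjusted p = 0.0321), where 0.058% of all genes fell. At E14.5 2 fell, Cpa3 (-2.69 ± 0.38, 0.0169) and the tryptase gene Tpsb2, where 0.0725% of all genes fell, and 1 rose, the growth factor receptor gene Kit (0.71 ± 0.12, 0.0365), which other cells also use, where 0.169% of all genes rose. Tpsb2 had 0 counts in 2 of those KO hearts and measured 0.0616 CPM in the other, against 1.05 to 1.36 CPM in WT hearts (adjusted p = 0.0310). With 1 library left out Cpa3 kept its call in 6 of 12 fits at E13.5 and in 10 of 12 at E14.5, Tpsb2 in 5 of 12 and Kit in 2 of 12. Without both low hearts none of them passed, although Cpa3 was still at -2.45 at E13.5 (adjusted p = 0.0714) and at -2.46 at E14.5 (0.104).

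Other cells of the low hearts were read for comparison. In E13.5 KO replicate 5 the erythroid markers summed to 5850 CPM, against 6682 and 10078 CPM in the other KO hearts and 6918 to 12058 CPM in WT hearts. In E14.5 KO replicate 2 they summed to 4912 CPM, against 9825 and 41955 CPM in the other KO hearts and 11792 to 18418 CPM in WT hearts, so both low hearts had the lowest erythroid sum of their stage. Endothelial markers summed to 996 CPM in E13.5 KO replicate 5, against 974.5 and 992 CPM in the other KO hearts and 1032 to 1117 CPM in WT hearts, and to 1104 CPM in E14.5 KO replicate 2, against 964 to 1121 CPM in WT hearts. Liver markers summed to 1.62 CPM in E13.5 KO replicate 5, against 1.47 and 1.69 CPM in the other KO hearts and 2.00 to 2.71 CPM in WT hearts, and to 1.86 CPM in E14.5 KO replicate 2, against 2.39 and 4.37 CPM in the other KO hearts and 1.94 to 5.84 CPM in WT hearts. Afp was at 0 in both low hearts; Serpina1a and Fgb were at 0 in them and also in all E13.5 WT hearts. Heart muscle markers summed to 23687 CPM in E13.5 KO replicate 5, inside the WT range, and to 21372 CPM in E14.5 KO replicate 2, the lowest of its stage. The part of these other cells in the leukocyte values was not tested. Neither low heart expressed Y-linked genes, nor did E14.5 KO replicate 1, whose leukocyte genes were not low.

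Some signals that feed or attract macrophages were higher in KO hearts. Of 21 tested growth factors, chemoattractants and their receptors, 4 rose and 0 fell in KO hearts averaged over the stages, where 0.962% of all genes rose and 0.594% fell: Csf1, Ccl7, Tgfb1 and Ccl2. The list as a whole had a median of -0.08 with 11 of 21 below 0, and 0 of the 21 passed at E13.5 or at E14.5 alone. Csf1, the main macrophage growth factor (chromosome 3, 107741048 to 107760469), measured 15.7, 18.3 and 16.5 CPM in E13.5 KO replicates 3, 5 and 7, against 13.7, 13.6 and 12.4 CPM in WT replicates 1, 4 and 2. At E14.5 it measured 14.53, 13.2 and 12.2 CPM in KO replicates 2, 4 and 1, against 10.3, 9.61 and 10.98 CPM in WT replicates 8, 7 and 7.2. All KO hearts lay above all WT hearts of their stage, and the averaged log2 fold change was 0.36 ± 0.07 (adjusted p = 0.0219). Il34, the other CSF1R ligand, was scarce (0.131 to 0.355 CPM in KO, 0.0560 to 0.335 CPM in WT; 0.16 ± 0.38, adjusted p = 0.873), and Cx3cl1, the ligand of CX3CR1, was at -0.14 ± 0.15 (0.699).

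The chemokine gene Ccl2, which draws monocytes through CCR2, measured 3.50, 5.55 and 4.43 CPM in E13.5 KO replicates 3, 5 and 7, against 1.86, 1.74 and 2.42 CPM in WT replicates 1, 4 and 2. At E14.5 it measured 13.7, 2.61 and 2.86 CPM in KO replicates 2, 4 and 1, against 1.94, 1.31 and 1.19 CPM in WT replicates 8, 7 and 7.2. The highest Ccl2 values of each stage were those of the hearts with the lowest macrophage genes, and the averaged log2 fold change was 1.64 ± 0.37 (adjusted p = 0.0486). Its neighbour in function Ccl7 rose by 1.67 ± 0.34 (0.0319) and was also highest in E14.5 KO replicate 2, at 2.80 CPM against 0.788 and 0.767 CPM in the other KO hearts and 0.195 to 0.448 CPM in WT hearts. Tgfb1, a growth factor that many heart cells make, rose by 0.28 ± 0.06 (0.0404). Igf1, on the list of tissue macrophage genes but also made by other heart cells, rose by 0.41 ± 0.07 (0.0185). Without E14.5 KO replicate 2 the averaged value of Ccl2 was 1.03 (0.0243). With 1 library left out, Csf1 kept its call in 7 of 12 fits, Ccl7 in 4, Ccl2 in 3, Tgfb1 in 2 and Igf1 in 9. Without both low hearts none of the 5 passed (adjusted p 0.119, 0.0840, 0.0605, 0.191 and 0.0724 in the same order).

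**Figure D4:**
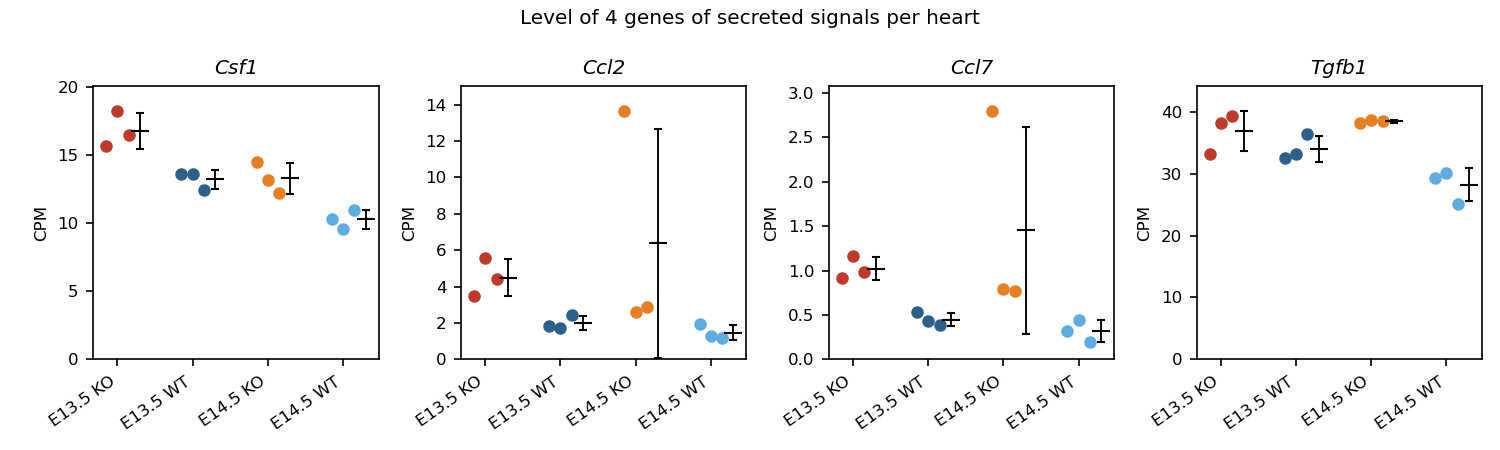
Level in CPM of 4 genes of secreted signals that rose in KO hearts averaged over the stages, in the single hearts (points) of the 4 groups, with the group mean and its standard deviation (bars, n = 3 each). Csf1 is higher in all KO hearts than in the WT hearts of the same stage, and 1 E14.5 KO heart stands far above all others for Ccl2 (13.7 CPM) and Ccl7 (2.80 CPM).

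Between the stages in KO hearts, 4 of the 21 signal and receptor genes and 2 of the 14 myeloid transcription factors rose, where 2.13% of all genes rose. Among them were Gas6, Kitl and Zeb2. Gas6 averaged 206 CPM in E13.5 and 285 CPM in E14.5 KO hearts. It also rose with a call in WT hearts, from 196 to 262 CPM. Kitl averaged 60.4 and 90.0 CPM in KO hearts and 56.2 and 79.0 CPM in WT hearts, without a call in WT. Irf8, a transcription factor of monocytes and macrophages, was higher at E14.5 by 0.95 ± 0.17 (adjusted p = 0.0173), at 8.59 to 12.1 CPM in E14.5 KO hearts against 4.46 to 6.56 CPM in E13.5 KO hearts. The WT value of the same comparison was 0.38 ± 0.17 (0.199), and the interaction did not pass (0.996). Ccr2, the receptor of CCL2, was higher at E14.5 in KO hearts by 3.35 ± 0.75 (0.0353). It measured 0.295, 1.75 and 3.32 CPM in E14.5 KO replicates 2, 4 and 1. In E13.5 KO replicates 3, 5 and 7 it measured 0.303, 0.0197 and 0.159 CPM, so those groups overlap. WT hearts had 1.04 to 2.07 CPM of Ccr2 at E13.5, above every E13.5 KO heart. At E14.5 WT hearts had 2.22 to 3.87 CPM, more than any E13.5 WT heart, and the KO mean (1.79 CPM) was under the WT mean (2.98 CPM). Ccr2 passed neither the WT comparison of stage nor KO against WT at either stage. Irf8 lost its call without both low hearts (adjusted p = 0.0876) and kept it in 9 of 12 fits with 1 library left out, against 7 of 12 for Ccr2.

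The genes outside all lists whose profile over the 12 hearts was nearest to the median of the 32 were Arhgap30, Myo1f, Tifab, Ccl9, Themis2, Ncf1, Il6ra, Tnfrsf11a, Sla and Ptafr. Profiles are log2 CPM centred on the 6 WT hearts, and likeness is the mean absolute difference over the 12 hearts, which was 0.18 for Arhgap30 and 0.29 for Ptafr, against a median of 0.69 over 12568 candidates. The median profile itself was at -1.39, -2.87 and -0.75 in E13.5 KO replicates 3, 5 and 7, at -2.02, 0.31 and 0.17 in E14.5 KO replicates 2, 4 and 1, and between -0.14 and 0.11 in WT hearts. Among the 32, Laptm5 (0.14) and Coro1a (0.14) lay nearest to it, and Pf4 (0.82), Timd4 (0.75) and Lyz2 (0.71) farthest. Arhgap30 measured 0.798, 0.138 and 1.25 CPM in E13.5 KO replicates 3, 5 and 7, against 1.95, 1.97 and 1.67 CPM in WT replicates 1, 4 and 2. Myo1f, a leukocyte myosin, measured 0.646, 0.217 and 0.973 CPM in the same KO hearts, against 2.93, 2.64 and 2.63 CPM in the WT hearts.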

How the data were processed

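RNA of 12 whole hearts (the labels name total RNA as the molecule and mRNA in the extraction) was made into libraries with a NEBNext Ultra kit. The authors deposited raw counts per gene symbol, whole numbers without normalization. STAR 2.5.3a, featureCounts, DESeq and DESeq2 and the build GRCm38 are named, without roles, per the submitters' processing notes; settings for strand, shared reads and annotation are not given in the sources used here. 27 symbols read as dates; none is among the 32 genes.

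Tests used edgeR 4.0.16 under R 4.3.3. After filterByExpr (20691 genes) and TMM scaling, all 12 libraries entered 1 quasi-likelihood model (common biological coefficient of variation 17.1%, with 8 residual degrees of freedom), with two-sided F-tests and Benjamini-Hochberg adjustment over all genes at 0.05. Each SE was obtained from the log2 fold change and its F value. Levels are CPM on the TMM-scaled library sizes, which counting error limits for genes with few counts. The test was checked on simulated counts, where DESeq2 made more false calls than its threshold allows. Positions and exon lengths come from GENCODE M21 on GRCm38.

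The 32 genes, the other lists and the rule for named genes were chosen with earlier results of these data known, so the lists get no test. The rule names all 32 genes, Ino80, per list and direction at most the 3 called genes with the smallest p, Csf1, Il34 and Cx3cl1, and the 10 nearest profiles among genes with a WT mean of at least 1 CPM. Irf8, Ccr2, Ccl2, the mast cell genes, S100a8 and S100a9 were singled out after their values were seen, and not every gene the rule allows is named. Replicates are embryos by their labels, with no statement on how they were handled apart, so p-values measure the spread between these samples. Replicate numbers do not pair the groups; within E14.5 litters hold both genotypes, and litter was tried as a block. No litter holds both stages, so the block tests nothing about stage. Other alternatives were DESeq2 1.42.0, limma 3.58.1 voom with sample quality weights, fits without the low-count filter, with RLE size factors or on the compared libraries alone, a Y-linked covariate, leaving out each library, both low hearts or litter 3, and, chosen after seeing the data, a robust dispersion. The low hearts were also picked after seeing the data, by their low levels of the 32 genes.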

Additional observations from a re-analysis of the deposited data

How the results depend on the processing

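Counts of the 32 genes that passed moved under these settings, and so did the counts over all genes given above. At E13.5 (0 as reported) the count was 2 by DESeq2, 1 with no low-count filter and 5 without both low hearts (replicate 5 of the E13.5 KO group, replicate 2 of the E14.5 KO group), and 0 to 2 with 1 library left out. Averaged over the stages it was 1 by DESeq2 and 1 with no low-count filter. For stage in KO hearts it was 5, 1 and 8 under the same settings, and 0 to 5 with 1 library left out. The cause was not tested. The other counts stayed at 0. The median log2 fold change with 1 library left out ran from -2.10 to -1.08 at E13.5, -0.51 to 0.27 at E14.5, -1.20 to -0.62 averaged, 0.96 to 1.98 for the interaction, -0.23 to -0.12 for stage in WT and 0.73 to 1.86 for stage in KO. With litter as a replicate block no call of KO against WT among the 32 genes changed. The WT stage median under the block was -0.33, but no litter holds both stages, so that this is not a paired value and depends on how the litter term is coded. At E14.5 the number of genes below 0 went to 4 of 32 without both low hearts, against 25 in all hearts; among 5 genes followed singly (Csf1r, Spi1, C1qa, Mrc1 and Ptprc) those that turned were Csf1r (0.30), Spi1 (0.19) and C1qa (0.12). Others turned averaged over the stages without both (Mrc1 0.0069) and at E13.5 with the Y-linked covariate (Pf4 -0.040). With 1 library left out, the ranges of the genes followed singly that cross 0 were, at E14.5, Csf1r -0.53 to 0.30, Spi1 -0.50 to 0.19, C1qa -0.79 to 0.12, Mrc1 -0.18 to 0.46 and Ptprc -0.10 to 0.65, and at E13.5 Lyz2 -0.47 to 0.076 and Pf4 -0.18 to 0.33. Ccl2 also lost its call by limma voom (0.0520), without litter 3 (0.0562) and with a robust dispersion (0.0862), and Tgfb1 without litter 3 (0.0794). Fits on the compared libraries alone do not exist for the averaged comparison and the interaction, which use all libraries; at E13.5 that fit held 30 of the 32 genes.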

Other observations

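Neutrophil genes set 1 WT heart apart. The 13 neutrophil markers summed to 32.4 CPM in E14.5 WT replicate 7.2, against 0.869 to 2.02 CPM in the other WT hearts and 0.928 to 2.75 CPM in KO hearts. S100a8 and S100a9, the calprotectin subunits of neutrophils, measured 9.45 and 8.46 CPM in that WT heart. Its macrophage genes lay near those of the other E14.5 WT hearts, with a median of 109% of their mean. That heart is 1 of the 3 WT hearts behind the E14.5 median log2 fold change of -2.01 over the 7 tested neutrophil markers, and its part in that value was not tested.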
